A study of Homo sapiens with 25 samples.

Results

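Inhibition of LSD1 in hiF-T cells was measured in 4 of the 25 libraries of the series, chosen by their labels: 2 libraries of cells under LSD1 inhibition and the 2 control libraries that carry the same replicate numbers. In replicate 1 the control received DMSO, the usual solvent of small molecule inhibitors, and in replicate 2 the control received no drug. hiF-T is a human line made from BJ skin fibroblasts. All 4 libraries have the genotype WT in the labels, which give neither the compound nor its dose or the time of exposure. The other libraries were 1 of DOT1L inhibition in replicate 1, and 20 of cells left ungated or sorted by the accumulation of a dye (the sort set). Libraries were made from poly(A) RNA with a kit that does not record the strand. Each kind of control had 1 library, so DMSO against no drug and replicate 1 against replicate 2 cannot be told apart.

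LSD1, encoded by KDM1A, is a demethylase of histone H3 that strips lysine 4 (H3K4) of 1 or 2 methyl groups, a modification of active promoters and enhancers. It acts mostly as a repressor, within a complex with the scaffold CoREST (RCOR1 to RCOR3) and the deacetylases HDAC1 and HDAC2. DNA binding factors bring the complex to genes: the SNAG domain proteins SNAI1, SNAI2 and GFI1, and REST, the repressor of neuronal genes outside the nervous system. In tumour cells that have lost epithelial traits, SNAI1 and LSD1 are known to hold epithelial genes silent. LSD1 loss is also known in other cells for raising endogenous retroviral RNA and interferon-stimulated genes, and LSD1 inhibitors have been used in reprogramming of fibroblasts.

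Gene counts summed to between 15538588 and 16199473 in the 4 libraries, and between 23031 and 23941 genes had at least 1 count. No library was a copy of another: the chi-square per degree of freedom over genes was 8.779 and 9.889 within the pairs, 13.88 between the LSD1 inhibition libraries and 17.69 between the controls. The libraries of replicate 2 differed from those of replicate 1 in the telomerase gene TERT. It stood at 666 CPM (counts per 1e+06 gene counts, scaled by TMM factors) in DMSO and 478 in LSD1 inhibition of replicate 1. In replicate 2 it stood at 2000 in no drug and 1431 in LSD1 inhibition. Fibroblast markers were present in every library, with 11 of the 12 listed markers above the filter (THY1 was not) and summed levels of 11770 to 14080 CPM.

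The sequences below show the start regions of the gene with the largest rise and of 2 genes from the group that was lower under LSD1 inhibition. They are RefSeq promoters on GRCh38.p14, given 5′ to 3′ on the gene's strand and ending where the first annotated exon begins. Capitals mark CAGGTG, the E-box form bound by SNAI1, in ABCA3 (chr16:2340747-2340921, minus strand), and GAAA repeated after any 2 bases, the core of the interferon-stimulated response element, in IFIT1 (chr10:89392373-89392545, plus strand) and IFIT3 (chr10:89327747-89327893, plus strand). All matches shown lie on the strand opposite to the gene and so appear as their reverse complements.
ABCA3: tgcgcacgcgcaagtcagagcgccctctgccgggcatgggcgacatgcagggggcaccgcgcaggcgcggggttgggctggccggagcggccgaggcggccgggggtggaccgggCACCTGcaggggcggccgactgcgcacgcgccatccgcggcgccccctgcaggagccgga
IFIT1: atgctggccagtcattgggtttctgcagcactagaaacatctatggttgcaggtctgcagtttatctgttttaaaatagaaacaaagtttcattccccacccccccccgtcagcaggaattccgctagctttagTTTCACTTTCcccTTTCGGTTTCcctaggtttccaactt
IFIT3: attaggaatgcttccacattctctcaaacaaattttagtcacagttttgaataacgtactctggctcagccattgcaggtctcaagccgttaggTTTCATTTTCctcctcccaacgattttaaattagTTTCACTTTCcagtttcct

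LSD1 inhibition gave more RNA of 16 genes and less of none past the test. All 16 were higher in both pairs: the lipid transporter gene ABCA3, the actin-binding scaffold gene PPP1R9A, the sterol reductase gene TM7SF2, CHRNB1, PLAAT3, REEP2, ATP6V0E2, SYNGR2, IGFBP3, SQOR, CLU, MYEF2, ACTA2, WNT16, NALCN and CYFIP2. Their log2 fold changes lay between 1.02 (CYFIP2) and 4.26 (ABCA3). The test was edgeR's quasi-likelihood F test over 14002 genes, 2 libraries against 2, and calls were made where the Benjamini-Hochberg adjusted p was under 0.05. The calls made up 0.114% of the genes tested, all in 1 direction, and at an unadjusted p under 0.05 there were 729 higher genes (5.21%) and 221 lower ones (1.58%). By DESeq2 there were 113 higher and 3 lower genes. A fit with the replicate number as a block called many more genes, in both directions. The labels tie that number to no shared culture, so its counts are given with the other alternatives at the end. The number called rested on the spread between only 4 libraries: it was 232 without the DMSO library, 331 without the no drug library, 108 without LSD1 inhibition replicate 1 and 131 without LSD1 inhibition replicate 2, and each of these sets held all 16 genes. With no filter on low counts, 29793 genes were tested and none was called, with 819 higher and 300 lower at an unadjusted p under 0.05. A fit over all 25 libraries ended the calls of ACTA2, WNT16, IGFBP3, PLAAT3, NALCN and SYNGR2, with edgeR adjusted p of 0.998, 0.748, 0.723, 0.354, 0.126 and 0.0824, and one over the 5 drug libraries that of PPP1R9A (0.0511).

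ABCA3 encodes a transporter that loads phospholipids into the lamellar bodies of lung epithelial cells, and its gene lies at chr16:2275881-2340746. It stood at 1.11 CPM in DMSO and 16.9 in LSD1 inhibition of replicate 1, and at 0.808 in no drug and 20.1 in LSD1 inhibition of replicate 2. The 2 treated libraries stood far above both controls, and the log2 fold change was 4.26 ± 0.24 (SE, n = 2 against 2, edgeR adjusted p = 0.0103). DOT1L inhibition gave 0.912 CPM, and the 20 sort libraries ranged from 0.542 to 1.59, so no library outside LSD1 inhibition came near the treated level. PPP1R9A (chr7:94907202-95296415) encodes neurabin, a scaffold that ties protein phosphatase to actin filaments. Its level was 0.799 CPM in DMSO and 8.52 in the treated library of replicate 1, against 0.684 in no drug and 5.40 in the treated library of replicate 2. Treated and control libraries were apart, by 3.22 ± 0.35 on the log2 scale (edgeR adjusted p = 0.0472).

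TM7SF2 (chr11:65111845-65116384) encodes a reductase of the late steps of cholesterol synthesis. It stood at 4.12 CPM in DMSO, 25.3 in LSD1 inhibition replicate 1, 4.35 in no drug and 28.4 in LSD1 inhibition replicate 2. Controls and treated libraries each lay close together, and the log2 fold change was 2.66 ± 0.16 (edgeR adjusted p = 0.0103). CHRNB1 (chr17:7445061-7457707), a subunit of the muscle acetylcholine receptor, was at 2.76 and 2.86 CPM in the controls and at 13.2 and 12.3 under LSD1 inhibition (log2 fold change 2.18 ± 0.19, edgeR adjusted p = 0.0287). PLAAT3, a phospholipase and acyltransferase, was at 2.70 and 2.42 CPM in DMSO and no drug, and at 10.4 and 13.8 under LSD1 inhibition.

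Of the remaining called genes, 3 encode secreted proteins. IGFBP3 (chr7:45912245-45921874), a carrier of insulin-like growth factors in the medium, stood at 81.8 CPM in DMSO, 308 in LSD1 inhibition replicate 1, 84.2 in no drug and 238 in LSD1 inhibition replicate 2 (log2 fold change 1.72 ± 0.15, edgeR adjusted p = 0.0287). CLU, a secreted chaperone, was at 40.4 and 41.9 CPM in DMSO and no drug and at 108 and 101 in the treated libraries. WNT16, a Wnt ligand, was at 33.3 and 35.4 CPM in the controls and at 71.6 and 79.0 in the treated libraries. In each of these genes both treated libraries lay above both controls. ACTA2, the smooth muscle actin of myofibroblasts, went from 51.6 CPM in DMSO to 121 and from 55.4 in no drug to 120 (log2 fold change 1.17 ± 0.11, edgeR adjusted p = 0.0287).

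Other called genes encode membrane, mitochondrial or cytoskeletal proteins. SYNGR2, a vesicle membrane protein, was at 23.7 and 32.1 CPM in DMSO and no drug and at 84.8 and 92.8 under LSD1 inhibition. REEP2, which shapes the endoplasmic reticulum, was at 6.21 and 6.46 CPM in the controls and at 20.4 and 24.0 in the treated libraries. ATP6V0E2, a membrane subunit of the vacuolar proton pump, was at 10.7 and 11.5 CPM in the controls and at 35.8 and 36.0 in the treated libraries. NALCN, a sodium leak channel, was about level in the 2 controls (44.5 and 44.6 CPM) and in the 2 treated libraries (92.9 and 90.3 CPM). SQOR, the mitochondrial enzyme that oxidises sulfide, MYEF2, an RNA-binding protein, and CYFIP2, a subunit of the actin-nucleating WAVE complex, had log2 fold changes of 1.41 ± 0.14, 1.30 ± 0.12 and 1.02 ± 0.11. Because the strand was not recorded, reads of genes that share exons with a neighbour cannot be told apart, which touches 30.1% of the exonic bases of ACTA2, 28.5% of SQOR, 19.7% of ATP6V0E2, 14.6% of CHRNB1 and 13.7% of MYEF2.

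**Figure D1:**
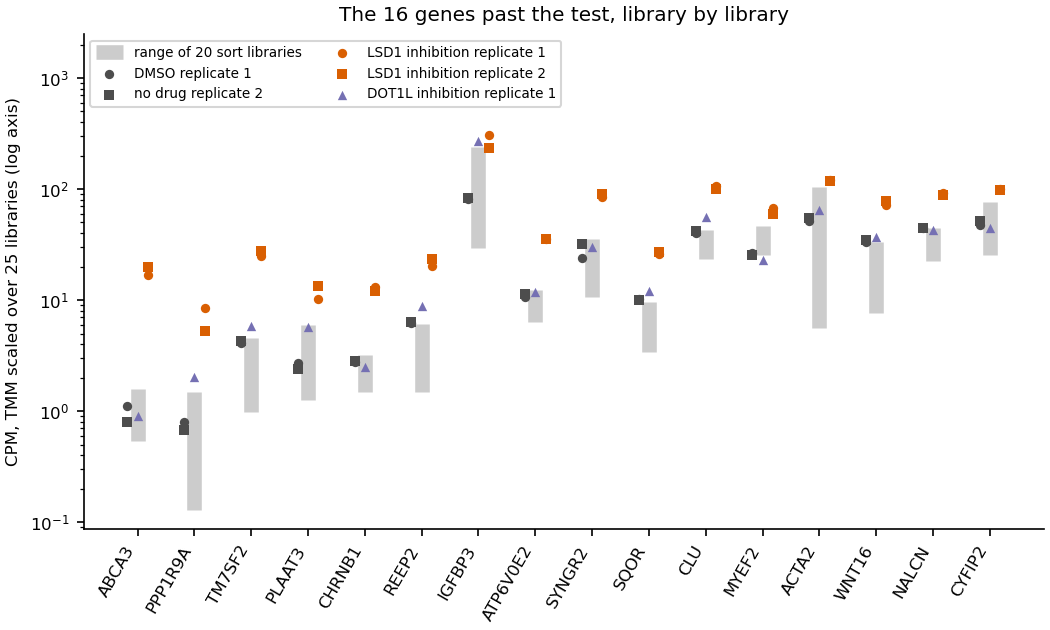
Level of the 16 called genes in each library (CPM scaled by TMM over the 25 libraries, log axis), ordered by fold change. Orange points are LSD1 inhibition, dark grey points its controls (circles replicate 1, squares replicate 2), purple triangles DOT1L inhibition, and grey bars the range of the 20 sort libraries. The orange points lie above the grey bar in 15 of the 16 genes, IGFBP3 being the exception.

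Both treated libraries exceeded all 20 sort libraries in 15 of the 16 called genes, on CPM scaled over the 25 libraries. The exception was IGFBP3, which was at 307 and 233 CPM under LSD1 inhibition on that scale, while the sort libraries ranged from 29.3 to 238. Across all genes tested, both treated libraries exceeded every sort library in 7.33%, and both controls did so in 1.68%. The called genes were chosen for being high in the treated libraries, so their position describes levels only. DOT1L inhibition, which shares the DMSO control, lay above the DMSO library in 11 of the 16 genes and below it in 5. It gave 271 CPM of IGFBP3, 5.70 of PLAAT3 and 2.05 of PPP1R9A, all above DMSO, and 23.1 of MYEF2, 42.8 of NALCN and 44.8 of CYFIP2, each below it. With 1 library, DOT1L inhibition had no test.

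The pairs share no library, but they share the filter on low counts. Of the tested genes, 560 had both treated libraries but not both controls reaching the filter's count cutoff, and 212 had the reverse. Below, these are said to pass only through the treated libraries or only through the controls. In either case a library of the other arm may also have reached the cutoff. Agreement between the pairs is thus not independent of the filter. LSD1 inhibition was at least 2-fold above its control in 329 genes (2.35%) of pair 1 and 302 genes (2.16%) of pair 2, and 147 genes (1.05%) passed 2-fold in both. Of the 329 genes of pair 1, 281 (85.4%) were higher in pair 2 as well, with a median log2 ratio there of 0.89. Of the 302 genes of pair 2, 284 (94.0%) were higher in pair 1, with a median of 0.97. The lower side repeated less often, and whether the filter had a part in this was not tested. At least 2-fold lower were 76 genes (0.543%) in pair 1 and 59 (0.421%) in pair 2. Of these, 43 (56.6%) and 35 (59.3%) were lower in the other pair. Only 4 (0.0286% of those tested) passed 2-fold in both. Opposite ratios of 2-fold or more were seen in 7 genes higher in pair 1 (0.05%) and 2 genes higher in pair 2 (0.0143%). Over all tested genes, 33.8% were higher in both pairs at any size, 33.6% lower in both and 32.6% split, and the Pearson correlation of the 2 ratios was 0.50 across 14002 genes, which are not independent replicates and share library depth and composition.

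**Figure D2:**
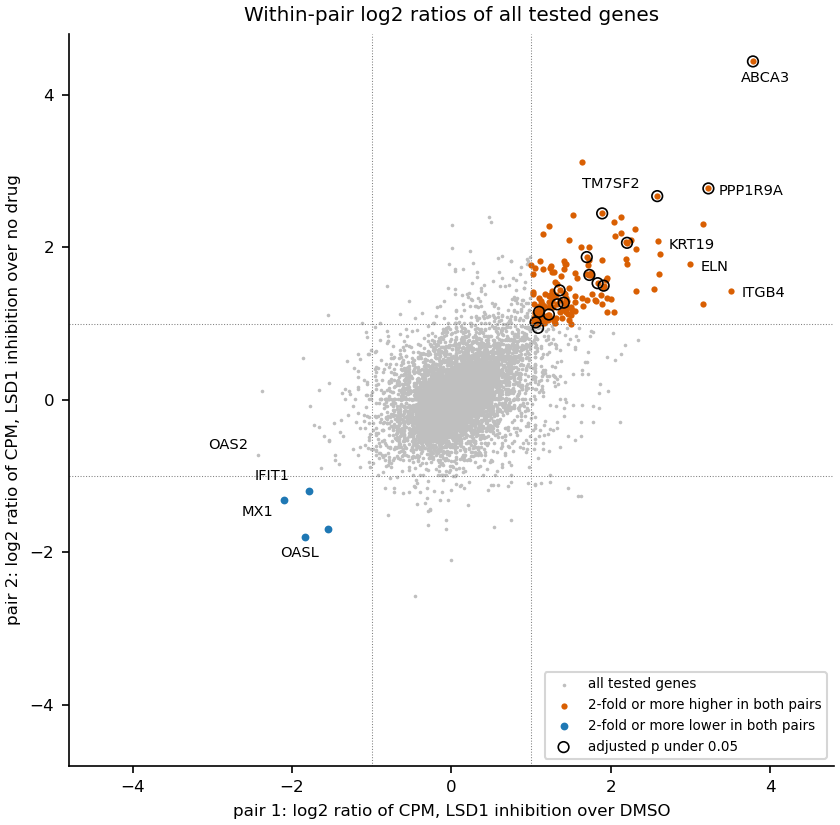
Log2 ratio of each tested gene in pair 1 (x axis, LSD1 inhibition over DMSO) and pair 2 (y axis, LSD1 inhibition over no drug), with CPM offset by a prior count of 2. Orange marks the 147 genes at least 2-fold higher in both pairs, blue the 4 at least 2-fold lower, and black rings the 16 genes past the test, of which all but CYFIP2 lie beyond both dotted 2-fold lines.

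The 147 genes comprised 132 protein-coding genes and 15 others, had a median log2 fold change of 1.53, and held 15 of the 16 called genes. Of the 147, 56 (38.1%) passed the filter on low counts only through the treated libraries, as 4.00% of all tested genes did. Many were low: 60 of the 147 and 1 of the 4 lower genes had a mean of 5 CPM or more in the arm where they were higher. For scale, 467 genes lay at least 2-fold apart between the 2 controls and 310 between the 2 treated libraries. Agreement in 2 pairs is a count without a test.

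Next in rank after the called genes by the smaller pair ratio, among genes with a mean of at least 5 CPM in the treated arm and chosen after their values were seen, came genes that did not pass the test. KRT19, a keratin of simple epithelia, stood at 3.07 CPM in DMSO, 19.2 in LSD1 inhibition replicate 1, 8.27 in no drug and 35.4 in LSD1 inhibition replicate 2, with the treated libraries above both controls and a clear difference between the 2 controls (log2 fold change 2.27 ± 0.47, edgeR adjusted p = 0.201). EEF1A2, the elongation factor form of muscle and neurons, was at 2.46 and 4.23 CPM in DMSO and no drug and at 11.7 and 18.2 under LSD1 inhibition (edgeR adjusted p = 0.115). ITGA7, a laminin receptor of muscle, was at 3.56 and 5.72 CPM in DMSO and no drug and at 15.2 and 25.7 under LSD1 inhibition (edgeR adjusted p = 0.115). HES5, a target of Notch signalling, was at 3.38 and 2.42 CPM in the controls and at 16.02 and 8.66 in the treated libraries (edgeR adjusted p = 0.141). In all 4 genes both treated libraries lay above both controls. Among these genes, KIAA1671, ARFGEF3 and NIPAL4 lay just outside the threshold, with edgeR adjusted p of 0.0515, 0.0515 and 0.0535. Just outside the 2-fold limit in pair 2 stood CYFIP2, at a log2 ratio of 0.94, and just inside it NALCN, at 1.02.

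The RNA of the target itself differed by less than the spread between replicates. KDM1A stood at 146 CPM in DMSO, 139 in LSD1 inhibition replicate 1, 123 in no drug and 115 in LSD1 inhibition replicate 2 (log2 fold change -0.09 ± 0.14, edgeR adjusted p = 0.98). An inhibitor of an enzyme need not alter the RNA of its gene, so this level does not check the labels. The LSD1 and CoREST complex list had 14 of 15 genes tested (RCOR2 had 3 to 6 counts), none of which was called: 2 were higher and 5 lower in both pairs, with medians of -0.04 and -0.02 in pairs 1 and 2. GSE1, a subunit found with CoREST, was at 41.8 and 40.9 CPM in DMSO and no drug and at 56.5 and 65.2 under LSD1 inhibition, above both controls (log2 fold change 0.56 ± 0.12, edgeR adjusted p = 0.225). The corepressor CTBP2 and the deacetylase HDAC2 were lower in both pairs, at log2 fold changes of -0.18 ± 0.11 and -0.20 ± 0.15. The second LSD enzyme, KDM1B, and RCOR1 lay at -0.02 ± 0.14 and 0.01 ± 0.10. None of 17 enzymes that write or erase H3K4 methylation was called either, where 0.114% of all tested genes were. Of the 17, 9 (52.9%) were lower and 1 (5.88%) higher in both pairs, against 33.6% and 33.8% of all tested genes. Their medians were -0.06 and -0.12 in pairs 1 and 2. In 8 of them both treated libraries lay below both controls, as in 15.7% of all tested genes.

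Among the factors that bring LSD1 to DNA, 6 of 18 could be tested and none was called. SNAI1 stood at 11.7 CPM in DMSO, 23.9 in LSD1 inhibition replicate 1, 3.17 in no drug and 8.48 in LSD1 inhibition replicate 2. It was at least 2-fold higher within each pair, but the DMSO library lay above the treated library of replicate 2, and the log2 fold change of 1.12 ± 0.65 had an edgeR adjusted p of 0.893. Its relative SNAI2 was at 218 and 220 CPM in replicate 1 and at 114 and 161 in replicate 2 (control, then treated). REST was at 54.7 and 43.9 CPM in replicate 1 and at 57.4 and 48.4 in replicate 2, lower in both treated libraries than in both controls (log2 fold change -0.28 ± 0.11, edgeR adjusted p = 0.715). GFI1 had 3 to 6 counts per library and was not tested.

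Several epithelial genes were higher under LSD1 inhibition, although none passed the test. Of 28 listed markers, 16 passed the filter on low counts and were tested. Of these, 4 (EPCAM, KRT7, OCLN and ITGB4) passed only through the treated libraries, a condition that favours higher levels there. Counts over the tested members are thus a description of those genes alone. Of the 16, 12 (75.0%) were higher in both pairs and 2 (12.5%) lower, 6 (37.5%) were at least 2-fold higher in both, and the median log2 ratio was 1.19 in pair 1 and 0.57 in pair 2, where the medians over all genes were -0.0012 and 0.0038. Without those 4 genes, 8 of 12 were higher and 2 lower in both pairs, 3 were at least 2-fold higher in both, and the medians were 0.45 and 0.24. In 11 of the 16 both treated libraries lay above both controls (18.3% of all tested genes), and in 8 both lay above every sort library (7.33%). Both counts run over all 16 genes, with the 4 that passed the filter only through the treated libraries, so the shares give scale only. EPCAM, an adhesion protein of epithelia, stood at 0.491 CPM in DMSO, 2.95 in LSD1 inhibition replicate 1, 0.622 in no drug and 2.83 in LSD1 inhibition replicate 2 (log2 fold change 2.36 ± 0.33, edgeR adjusted p = 0.0988). Treated and control libraries of EPCAM did not overlap, nor did those of CLDN1, a tight junction protein, at 14.4 and 26.4 CPM in DMSO and no drug and 47.2 and 65.2 under LSD1 inhibition (edgeR adjusted p = 0.186). OCLN, also of tight junctions, was at 0.0614 and 0.311 CPM in the controls and at 0.961 and 1.07 in the treated libraries. ITGB4, the integrin chain of hemidesmosomes, was at 0.184 and 0.435 CPM in the controls and at 3.40 and 1.38 in the treated libraries. The hair keratin gene KRT81 completed the 6 genes past 2-fold in both pairs; it and CLDN1 were singled out after their values were seen.

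The defining epithelial genes stayed near zero. KRT5, GRHL2 and ST14 had no count in any of the 4 libraries, CDH1, the E-cadherin gene, had 0 to 4 counts, KRT14 0 to 3 and ESRP1 0 to 1. CLDN3 had no count in either control, and 11 and 2 counts in LSD1 inhibition replicates 1 and 2. The summed level of the whole list was 475 and 583 CPM in DMSO and no drug, and 620 and 719 under LSD1 inhibition. KRT18, a keratin also made by fibroblasts in culture, gave 38.4% to 41.2% of that sum in the 4 libraries (182 and 229 CPM in the controls, 255 and 290 under LSD1 inhibition). In bulk RNA, a few cells with high levels and many with low levels cannot be told apart. DOT1L inhibition gave 12.3 CPM of KRT19 and 13.1 of KRT81, above the DMSO library in both, and 1.99 of EPCAM.

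Most interferon-stimulated genes were lower under LSD1 inhibition, with larger ratios against DMSO than against no drug, and none passed the test; the difference between the pairs was not tested. Of 30 listed genes, 23 were tested: 16 (69.6%) were lower in both pairs, and IRF1, the transcription factor, was the 1 gene higher in both. Of the 4 genes that were at least 2-fold lower in both pairs, 3 belong here, namely IFIT1, MX1 and OASL, all antiviral effectors; the fourth was FSTL5, at 13 and 11 counts in the controls and 3 and 2 in the treated libraries. The median log2 ratio was -0.65 in pair 1 and -0.17 in pair 2, and in 11 of the 23 both treated libraries lay below both controls, as 15.7% of all tested genes did. IFIT1 stood at 27.9 CPM in DMSO, 8.01 in LSD1 inhibition replicate 1, 11.5 in no drug and 4.96 in LSD1 inhibition replicate 2 (log2 fold change -1.60 ± 0.44, edgeR adjusted p = 0.387). MX1 was at 3.99 and 2.05 CPM in DMSO and no drug and at 0.833 and 0.753 under LSD1 inhibition (edgeR adjusted p = 0.244). OASL, which like OAS2 passed the filter on low counts only through the controls, was at 3.07 and 1.62 CPM in the controls and at 0.769 and 0.377 in the treated libraries. In all 3 the treated libraries lay below both controls. OAS2, a sensor of viral RNA, was at 2.95 and 0.808 CPM in DMSO and no drug and at 0.449 and 0.440 under LSD1 inhibition, and IFIT3, whose start region is printed above, at 24.5 and 13.99 against 14.9 and 11.2, where the treated library of replicate 1 lay above the no drug library.

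The controls themselves differed in these genes. The list summed to 690 CPM in DMSO and 498 in no drug, and to 485 and 481 in LSD1 inhibition replicates 1 and 2, so the treated libraries lay close together while the DMSO library stood apart. IFIT1 ranged from 3.93 to 36.0 CPM in the sort libraries, a range that holds all 4 libraries on that scale, and DOT1L inhibition gave 17.95. Whether the solvent or the replicate had a part in the DMSO level was not tested. The motif of GAAA, any 2 bases and GAAA lay in the promoters of 13 of the 18 interferon genes with a RefSeq entry (72.2%), against 3.02% of 35116 promoters, and in 2 of 112 promoters (1.79%) of the genes at least 2-fold higher in both pairs. CAGGTG lay in 29 of those 112 (25.9%), in 2 of 7 epithelial promoters (28.6%) and in 2 of the 18 interferon promoters (11.1%). It lay in 17.5% of all promoters and 15.1% of those of tested genes. The gene sets count 1 promoter a gene and these shares count every entry, and no difference was tested. A match describes letters in the window before the gene start, searched on both strands, and not binding.

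**Figure D3:**
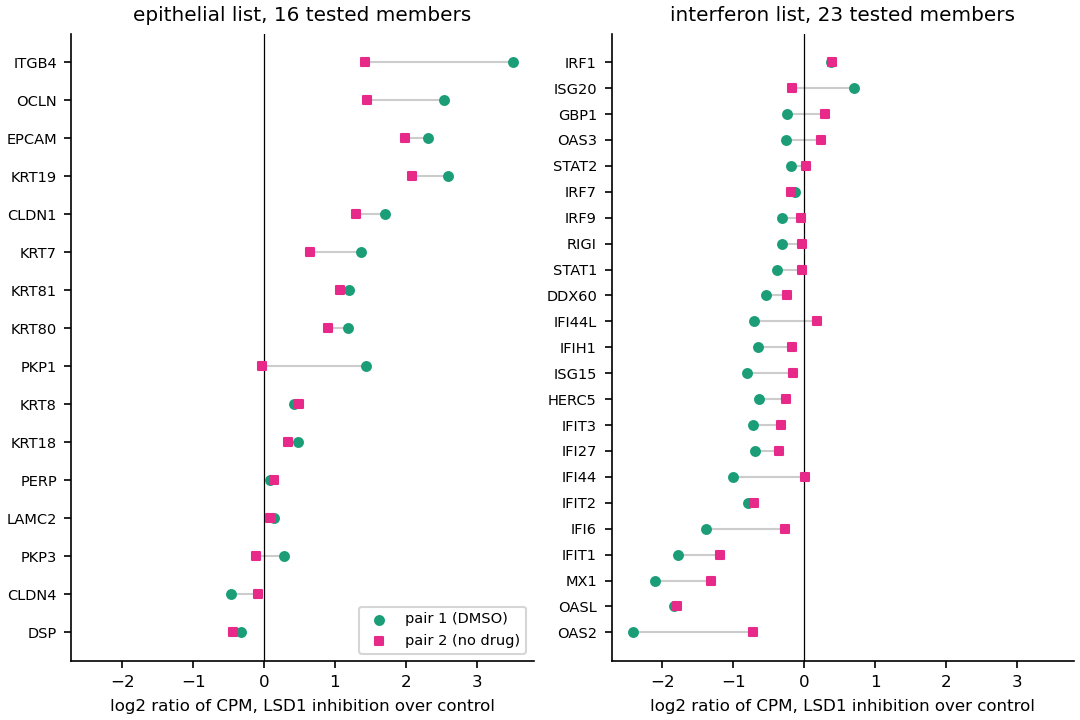
Log2 ratio of LSD1 inhibition over control for each tested member of the epithelial (left) and interferon (right) lists, with green circles for pair 1 (DMSO) and pink squares for pair 2 (no drug) joined by a line. KRT19, EPCAM, OCLN and ITGB4 lie far to the right in both pairs. EPCAM, OCLN and ITGB4 passed the filter on low counts only through the treated libraries. Most interferon genes lie left of 0 in pair 1 and nearer 0 in pair 2.

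Most genes of the extracellular matrix were slightly higher in both pairs. Of 31 tested collagen and matrix genes, 25 (80.6%) were higher in both pairs and 5 (16.1%) lower, with medians of 0.28 and 0.31, and 19 had both treated libraries above both controls, as 18.3% of all tested genes did. None was called. COL3A1, a fibrillar collagen, stood at 66.0 and 53.5 CPM in DMSO and no drug and at 115 and 97.4 under LSD1 inhibition (log2 fold change 0.83 ± 0.15, edgeR adjusted p = 0.141). LUM, a proteoglycan that binds collagen fibrils, was at 6.82 and 10.01 CPM in the controls and at 15.6 and 17.4 in the treated libraries (edgeR adjusted p = 0.244). THBS1, a matricellular glycoprotein, was at 1808 and 2669 CPM in the controls and at 3019 and 4339 in the treated libraries, which lay above both controls. Elastin, ELN, which passed the filter only through the treated libraries, was the 1 member at least 2-fold higher in both pairs, at 0.123 and 0.186 CPM in the controls and 1.86 and 0.942 in the treated libraries. Going the other way, VCAN, a large proteoglycan, was at 301 and 290 CPM in the controls and at 222 and 185 in the treated libraries, and the microfibril gene FBN2 was at 411 and 475 CPM against 321 and 279 (edgeR adjusted p = 0.245 and 0.244). The summed level of the list was 38110 and 42050 CPM in DMSO and no drug and 45220 and 51700 under LSD1 inhibition, and the fibroblast markers, some of which it shares, summed to 11770 and 11950 CPM in the controls and 13430 and 14080 in the treated libraries.

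Contractile and growth factor binding genes each had 1 called member, where 0.114% of all tested genes were called. ACTA2 was 1 of 2 among 18 tested contractile genes that were at least 2-fold higher in both pairs, while 11 were higher and 2 lower in both pairs at any size, and in 7 both treated libraries lay above both controls, as in 18.3% of all tested genes. LMOD1, which nucleates actin in smooth muscle, was the other, at 7.004 and 7.46 CPM in DMSO and no drug and 15.3 and 15.1 under LSD1 inhibition (edgeR adjusted p = 0.11). ACTG2, the enteric smooth muscle actin, was at 164 and 165 CPM in the controls and at 255 and 248 in the treated libraries (edgeR adjusted p = 0.128). SYNPO2, which bundles actin, was at 16.96 and 20.01 CPM in the controls and at 31.5 and 26.6 in the treated libraries. All 5 tested IGF binding genes were higher in both pairs, as 33.8% of all tested genes were, with medians of 0.49 and 0.61. After IGFBP3, IGFBP5 stood at 67.3 and 94.5 CPM in DMSO and no drug and at 139 and 153 under LSD1 inhibition (edgeR adjusted p = 0.193), and IGFBP4 at 1003 and 867 against 1361 and 1325 (edgeR adjusted p = 0.244). IGFBP7 was at 470 and 445 CPM in the controls and 661 and 547 in the treated libraries. In 4 of the 5 both treated libraries lay above both controls, as in 18.3% of all tested genes, with IGFBP6 the exception.

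**Figure D4:**
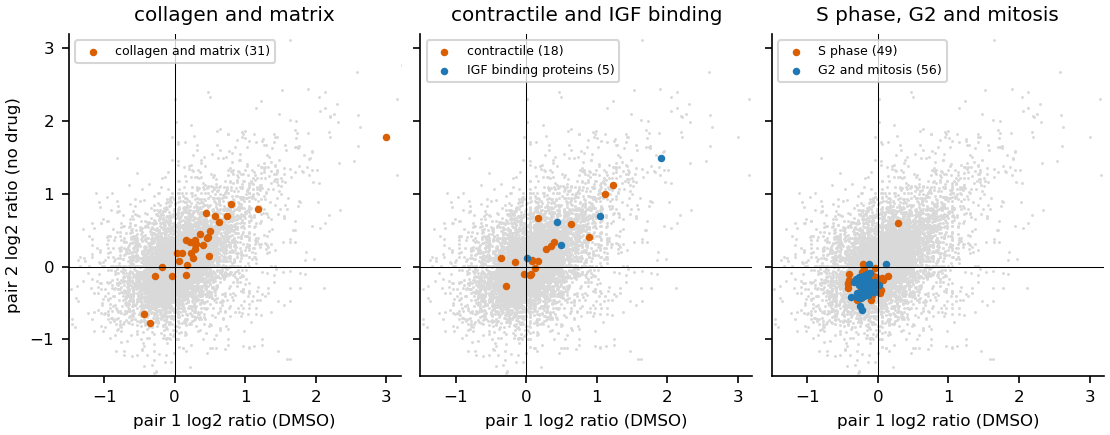
Log2 ratios of pair 1 (x axis) and pair 2 (y axis) for members of 5 gene lists over the tested genes (light grey, a few of them outside the axes). Matrix, contractile and IGF binding genes lie mostly at the upper right, and cell cycle genes lie in a tight group just below and left of 0, none past 2-fold.

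Most cell cycle genes were a little lower within each pair, and their summed levels differed less within a pair than between the 2 controls. Of 56 tested G2 and mitosis genes, 53 (94.6%) were lower in both pairs and CDC25B, a phosphatase that starts mitosis, was higher in both, with medians of -0.18 and -0.26. Of 49 S phase genes, 40 (81.6%) were lower in both pairs and E2F2 was higher in both, with medians of -0.12 and -0.21. None was called, and the treated libraries lay below both controls in 12 of the 56 and 14 of the 49, where 15.7% of all tested genes did so. The mitotic list summed to 7668 CPM in DMSO, 6775 in LSD1 inhibition replicate 1, 6309 in no drug and 5213 in LSD1 inhibition replicate 2, so the treated library of replicate 1 lay above the no drug library. MKI67, the proliferation antigen, was at 408 and 406 CPM in DMSO and no drug and at 376 and 338 under LSD1 inhibition (log2 fold change -0.19 ± 0.11, edgeR adjusted p = 0.877). CDC25C was at 12.4 and 9.70 CPM in the controls and at 9.49 and 7.22 in the treated libraries, and the replication gene MCM10 at 29.6 and 24.0 against 22.1 and 19.6. The arrest gene CDKN1A was at 443 and 688 CPM in the controls and at 543 and 735 in the treated libraries, which overlap.

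Cholesterol synthesis genes other than TM7SF2 were not called. Of 25 tested, 19 (76.0%) were higher in both pairs and 1 (4.00%) lower, but the medians were 0.14 and 0.17, far from the 2.58 and 2.67 of TM7SF2. PMVK, a kinase of the mevalonate pathway, came next, at 16.8 and 16.7 CPM in DMSO and no drug and 24.4 and 25.6 under LSD1 inhibition (edgeR adjusted p = 0.244). MVK and SC5D had log2 fold changes of 0.37 ± 0.15 and 0.31 ± 0.10.

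Neuronal genes known as REST targets were split between the directions. Of 36 listed, 17 were tested, 9 (52.9%) were higher and 4 (23.5%) lower in both pairs, and the medians were 0.08 and 0.15. Among all tested genes, 33.8% were higher and 33.6% lower in both. NEFL and NEFH passed the filter on low counts only through the treated libraries. Without them 7 of 15 were higher and 4 lower, with medians of 0.08 and 0.06. SCG5, a secretory granule chaperone, was the 1 member at least 2-fold higher in both, at 4.91 and 5.72 CPM in DMSO and no drug and 13.1 and 12.1 under LSD1 inhibition (edgeR adjusted p = 0.104), but the sort libraries reached 37.3 CPM. INA, a neuronal intermediate filament, was at 1.72 and 1.31 CPM in the controls and at 2.50 and 3.33 in the treated libraries, and SCN3A, a sodium channel, was lower in both pairs at 1.66 and 2.73 against 1.03 and 1.95.

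More secreted and inflammatory factors were higher than lower, none past the test. Of 28 tested, 16 (57.1%) were higher and 4 (14.3%) lower in both pairs, against 33.8% and 33.6% of all tested genes. CCL2 and ICAM1 passed the filter on low counts only through the treated libraries, and without them 14 of 26 were higher and 4 lower. The tested members summed to 2520 and 2736 CPM in DMSO and no drug and to 3521 and 3822 under LSD1 inhibition. PTGS2, the inducible cyclooxygenase, stood at 69.7 CPM in DMSO, 34.4 in LSD1 inhibition replicate 1, 55.7 in no drug and 30.2 in LSD1 inhibition replicate 2 (log2 fold change -0.96 ± 0.15, edgeR adjusted p = 0.115). It lay below both controls in both treated libraries, as did the cytokine gene IL11, at 73.8 and 60.5 CPM in DMSO and no drug against 53.8 and 35.9. CXCL12, a chemokine of stromal cells, was at 319 and 498 CPM in the controls and at 629 and 866 in the treated libraries (edgeR adjusted p = 0.392), and the growth factor gene AREG at 3.50 and 4.23 against 5.90 and 8.29. Of the other lists, PLAU, the urokinase gene, was at 244 and 167 CPM in the controls and at 404 and 342 in the treated libraries, and ANKRD1, a YAP target, at 36.1 and 83.5 against 114 and 195 (edgeR adjusted p = 0.244 and 0.468). In these 4 genes both treated libraries lay above both controls.

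The pluripotency and reprogramming genes gave no call. POU5F1 was at 3.13 and 2.73 CPM in DMSO and no drug and at 3.14 and 2.39 under LSD1 inhibition. SOX2 was at 2.83 and 2.36 CPM in the controls and at 3.53 and 3.83 in the treated libraries (log2 fold change 0.50 ± 0.24, edgeR adjusted p = 0.821), and KLF4 at 18.1 and 10.6 against 22.4 and 15.4. MYC was lower within each pair, at 99.7 and 79.3 CPM in replicate 1 and 70.0 and 63.4 in replicate 2 (control, then treated). TERT was also lower within each pair, at log2 ratios of -0.479 and -0.483 in pairs 1 and 2. Its log2 fold change was -0.48 ± 0.61, with the large difference between the replicates in its spread. Of 20 listed pluripotency genes 8 were tested, 3 higher and 3 lower in both pairs.

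Markers of other cell types the culture could hold were few. Of the endothelial list 5 of 12 genes were tested, of the melanocyte and Schwann cell list 5 of 12 and of the myeloid list 4 of 18, with none called. TYR, SOX10 and S100B of the melanocyte and Schwann cell list, and SPI1 and CD33 of the myeloid list, had no count in any of the 4 libraries. MITF was at 5.65 and 6.78 CPM in DMSO and no drug and at 9.93 and 10.2 under LSD1 inhibition, above both controls (edgeR adjusted p = 0.352).

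The remaining lists held no called gene other than WNT16. Of 16 tested NRF2 and metal response genes, 13 (81.2%) were higher in both pairs and none lower, with medians of 0.22 and 0.13. Without AKR1C1, which passed the filter on low counts only through the treated libraries, 12 of 15 were higher. HMOX1, which breaks down heme, was at 8.54 and 10.3 CPM in DMSO and no drug and 10.9 and 15.9 under LSD1 inhibition. Mesenchymal transcription factors split, with 10 of 25 higher and 11 lower in both pairs. Of these, TBX15, a limb and skin patterning factor, was at 8.29 and 8.89 CPM in DMSO and no drug and at 4.49 and 5.34 under LSD1 inhibition (edgeR adjusted p = 0.292). HOX genes had 7 of 19 higher and 4 lower in both pairs. Without HOXD4, which passed the filter only through the treated libraries, the counts were 6 and 4 of 18. They were 13 and 9 of 28 for p53 targets, 12 and 5 of 25 for integrated stress response genes and 8 and 9 of 28 for immediate early genes. Wnt ligands and antagonists had 6 and 6 of 15. Among all tested genes 33.8% were higher and 33.6% lower in both pairs.

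**Figure D5:**
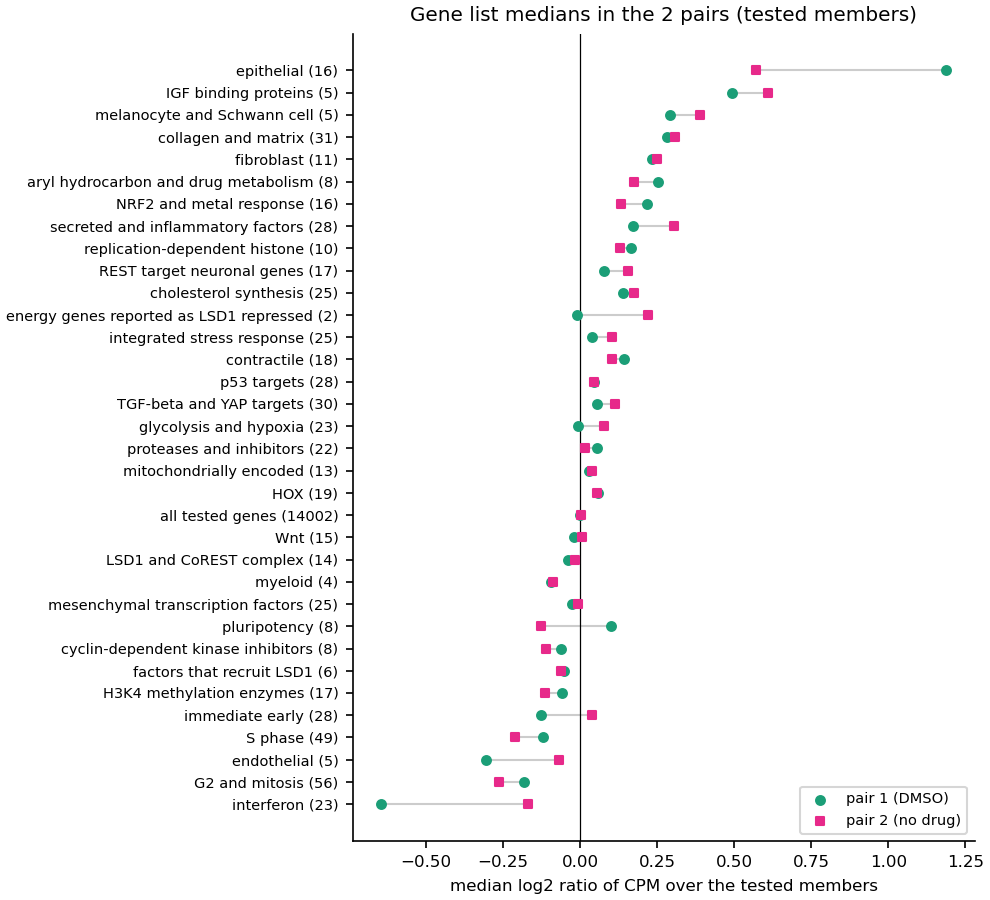
Median log2 ratio of LSD1 inhibition over control in pair 1 (green circles, DMSO) and pair 2 (pink squares, no drug) for each gene list, with the number of tested members in brackets, ordered by the median fold change. In pair 1 the epithelial list lies highest (1.19, with 0.57 in pair 2) and the interferon list lowest (-0.65). In pair 2 the IGF binding list lies highest (0.61). The epithelial place rests on 4 of 16 members that passed the filter on low counts only through the treated libraries. Without them its medians were 0.45 and 0.24, below the 0.49 and 0.61 of the IGF binding list. The epithelial and interferon lists have a wider gap between the pairs than the matrix and mitotic lists.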

How the data were processed

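Each deposited file held 1 raw count for every Ensembl gene. Alignment used STAR and counting HTSeq, on hg38 (GRCh38), per the submitters' processing notes; versions, annotation release and strand setting are not given in the sources used here. Reads assigned to no feature (4.84% to 6.21% in the 4 libraries) and ambiguous reads (7.19% to 7.45%) were left out. Of 58302 genes, 58039 were matched to GENCODE release 29 for coordinates. In R 4.3.3, edgeR 4.0.16 (TMM, filterByExpr with a minimum count of 10 and total of 15, glmQLFit and glmQLFTest) compared 2 LSD1 inhibition libraries with 2 control libraries without a block, with Benjamini-Hochberg adjustment over 14002 genes, and was tested on simulated counts first. SE is the log2 fold change over the root of F. Within-pair ratios used a prior count of 2 and have no test, having 1 library an arm. The labels call the samples biological replicates but name no separate cultures, so p-values measure the spread between these samples.

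Named were up to 12 genes a direction by the smaller pair ratio among called genes with at least 5 CPM, filled from genes past 2-fold in both pairs, 16 fixed genes, and up to 4 members a direction of each list; others are said to be chosen after their values were seen. The comparison and the 33 lists were chosen with earlier results of these data known. DESeq2 1.42.0, RLE factors, other filters, prior counts, a block, wider fits and leaving out each library were alternatives.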

Additional observations from a re-analysis of the deposited data

Results flagged for a closer look

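Ratios of at least 2-fold in opposite directions in the 2 pairs, which were not tested as a difference, were seen in 9 genes, all with 43 counts or fewer in each library. The difference between the log2 ratios (pair 1, against DMSO, minus pair 2, against no drug) was 2.21 for PSD4, 2.15 for PHYHIP, 2.89 for RUFY1-AS1, 2.16 for ENSG00000256973, 2.32 for SPDYE6, 2.86 for TYW1B and 2.62 for UCKL1-AS1, which were higher under LSD1 inhibition in pair 1 and lower in pair 2. It was -2.13 for MSC-AS1 and -2.65 for RHOQP1, which went the other way. UCKL1-AS1, with the highest counts of the 9, had 7 counts in DMSO, 22 in LSD1 inhibition replicate 1, 43 in no drug and 18 in LSD1 inhibition replicate 2.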

How the results depend on the processing

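The direction of the 16 called genes was kept under every alternative in which they were tested, and the number of calls was not. RLE factors gave 21 calls, a filter at a mean of 5 CPM 19, and a fit over the 5 drug libraries 15. No filter on low counts gave 0 calls, 0 of them higher. DESeq2 gave 116 calls, 113 higher and 3 lower (PTGS2, FBN2 and IFIT1). The fit over all 25 libraries gave 35, 34 higher and 1 lower (TMEM98), among them 10 of the 16. Leaving out 1 library gave 108 to 331 calls, 102 to 270 higher and 6 to 61 lower, with the lone library of an arm assumed to vary like the other arm. The replicate numbers name no shared culture, and with 2 pairs whether they pair the libraries was not tested. Among the 4 libraries, chi-square per degree of freedom was lower within a number (8.779 and 9.889) than between numbers (13.88 to 27.11). DOT1L inhibition, also of replicate 1, lay at 15.39 from DMSO and 13.84 from LSD1 inhibition replicate 1. Deviations from the arm means correlated at 0.557 for the same number. With 2 libraries an arm, the -0.557 for different numbers is its mirror image and adds nothing. With the replicate block 2242 genes were called, 1274 higher and 968 lower, among them 9 of 16 epithelial genes higher and 1 lower, 19 of 31 matrix genes higher and 3 lower, 13 of 23 interferon genes lower, 40 of 56 mitotic genes lower and 15 of 49 S phase genes lower. The genes past 2-fold in both pairs were 241 higher and 31 lower with no filter and 57 higher and 1 lower (IFIT1) with the filter at 5 CPM. Only values near 0 or with a large spread changed sign. The log2 fold change of RCOR1 was -0.0011 with RLE factors and with DESeq2, -0.0043 with no filter and -0.0069 over 25 libraries, and that of DOT1L was -0.000912 with no filter and -0.00290 over 25 libraries. Leaving out 1 library gave log2 fold changes of -0.24 to 0.045 for KDM1A, -0.15 to 0.12 for KDM1B, -0.018 to 0.030 for RCOR1, -0.20 to 0.74 for SNAI2, -0.22 to 0.28 for DOT1L, -1.48 to 0.52 for TERT, -0.30 to 0.099 for POU5F1, -0.48 to 0.028 for MYC, -0.11 to 0.52 for CDKN1A, -0.034 to 0.16 for IGFBP6 and -0.043 to 0.20 for CDC25B, all of which changed sign; the cause was not tested. Counts near 0 limit KRT5, CDH1, GFI1 and RCOR2.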
